A study of Mus musculus with 12 samples.

Results

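Prostanoids are lipid signals made from arachidonic acid, and 10 genes of their synthesis and reception were followed here in the mouse thoracic aorta. The genes were taken by their symbols from the deposited table of read counts: the synthesis enzymes Ptgs1, Ptgs2, Ptgis, Tbxas1, Ptges and Ptgds, and the receptors Ptgir, Tbxa2r, Ptger3 and Ptger4. All 10 were present among the 27933 genes of the table. All 10 also passed the filter on low counts, which left 14621 genes for testing. RNA had been sequenced from 12 libraries in 4 groups of 3: KO mice given nicotine vapor (libraries 3, 4 and 5), KO mice in room air (1, 2 and 7), WT mice given nicotine vapor (6, 11 and 12) and WT mice in room air (8, 9 and 10). KO stands for knockout of the alpha7 nicotinic acetylcholine receptor, the product of Chrna7, and WT for wild type; all mice were C57BL/6J, were exposed for 12 weeks from the age of 5 months and were 8 months old at sampling. The labels give neither the knockout allele nor the sex of the mice, and they leave it unsaid whether every library comes from its own mouse. The p-values therefore measure only how far these libraries spread, which may be in part technical.

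Cyclooxygenases, encoded by Ptgs1 and Ptgs2, turn arachidonic acid into the unstable endoperoxide PGH2, and terminal synthases convert PGH2 into the individual prostanoids. Prostacyclin, made by the product of Ptgis, relaxes vascular smooth muscle and restrains platelets through the receptor encoded by Ptgir. Thromboxane A2, made by the product of Tbxas1, contracts vessels and activates platelets through the receptor encoded by Tbxa2r. Prostaglandin E2, made by the product of Ptges among others, acts through EP receptors, which include those encoded by Ptger3 and Ptger4.

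Libraries held 10240031 to 12628323 counted reads, the fewest in WT nicotine 6. Levels below are in CPM, reads scaled to library size with TMM factors, unless stated otherwise. Chrna7 had 25, 8 and 21 reads in KO nicotine libraries and 26, 18 and 28 in KO air libraries, against 9, 18 and 26 in WT nicotine libraries and 22, 35 and 37 in WT air libraries. In KO over WT its log2 fold change was -0.36 ± 0.45 (SE) for air and 0.07 ± 0.47 for nicotine, and edgeR called neither. Reads summed over the whole gene do not check a deletion of part of it, and KO below means libraries labelled so. Library numbers are 1 to 5 and 7 for KO, and 6 and 8 to 12 for WT, and an effect of any order behind these numbers cannot be told apart from genotype. The KO nicotine numbers and the WT air numbers are each consecutive, so such an effect may enter the comparisons of nicotine with air as well. The 6 smooth muscle markers, Acta2, Myh11, Tagln, Cnn1, Smtn and Lmod1, summed to 22436 to 45223 CPM over the 12 libraries. The 7 adipocyte markers, such as Adipoq and Plin1, were also read in every library and summed to 812 to 2866 CPM.

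The start regions of both cyclooxygenase genes are shown because their reads are also compared as a ratio below. They run from 250 bases before to 30 bases after the annotated start, 5′ to 3′, in lower case with motif matches in capitals.
Ptgs2: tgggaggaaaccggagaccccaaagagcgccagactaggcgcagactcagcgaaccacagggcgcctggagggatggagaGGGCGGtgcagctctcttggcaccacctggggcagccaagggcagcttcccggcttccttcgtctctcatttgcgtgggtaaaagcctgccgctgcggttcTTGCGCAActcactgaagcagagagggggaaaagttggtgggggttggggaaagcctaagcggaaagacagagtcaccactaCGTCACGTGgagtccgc
Ptgs1: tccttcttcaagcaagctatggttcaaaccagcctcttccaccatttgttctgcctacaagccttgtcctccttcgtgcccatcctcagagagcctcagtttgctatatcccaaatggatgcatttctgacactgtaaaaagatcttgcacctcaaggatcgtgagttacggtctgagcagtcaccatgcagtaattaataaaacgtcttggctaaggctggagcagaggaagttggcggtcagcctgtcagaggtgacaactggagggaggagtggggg
Both are RefSeq sequences of build GRCm38.p6 on the + strand, Ptgs2 at chr1:150099781-150100060 and Ptgs1 at chr2:36230176-36230455. Windows of 300 bases, which run 50 bases past the start, were found for 9 of the 10 genes, with none found for Ptgis, and were searched on both strands for 8 motifs. The Ptgs2 window held GGGCGG, a GC box found in 35.7% of 32851 such windows, at -170 from the start. It held TTGCGCAA, a C/EBP element found in 0.183% of windows, at -69. It also held TGACG on the opposite strand at 13 and CACGTG, an E-box, at 16, which overlap each other and are found in 20.8% and 7.15% of windows. The Ptgs1 window held none of these, nor TATAAA (13.6% of windows), CCAAT (37.4%), TGACGTCA (1.79%) or TGANTCA (7.81%). These matches describe letters in the windows and are not binding sites measured here.

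Ptgis was by far the most abundant of the 10 transcripts per length. On the scale of CPM per kilobase of exon (exon union of GENCODE M21), the level of Ptgis was 184 ± 47.2 (SD, n = 12 libraries), with a range of 122 to 280. Next came Tbxa2r at 10.4 ± 2.22, Ptgs2 at 9.68 ± 5.63, Ptgs1 at 7.64 ± 1.81 and Ptger3 at 5.73 ± 2.37 CPM per kilobase. Lower levels per kilobase were read for Ptger4 (2.42 ± 0.653), Ptgir (2.04 ± 0.607), Ptges (1.74 ± 0.556), Tbxas1 (0.599 ± 0.248) and Ptgds (0.398 ± 0.288). The ranges of every neighbouring pair in this order overlapped except those of Ptgis and Tbxa2r. The order also depended on the length used. Per kilobase of the longest transcript, the means were 224 for Ptgis, 10.4 for Tbxa2r, 10.3 for Ptgs1, 9.96 for Ptgs2 and 9.11 for Ptger3. Ptgs1 then stood above Ptgs2. The prostacyclin synthase transcript stood far above that of the prostacyclin receptor, and the thromboxane synthase transcript stood below that of its receptor. The ranges were 0.222 to 1.02 CPM per kilobase for Tbxas1 and 6.30 to 13.6 for Tbxa2r. Exons of other genes on the opposite strand cover 16.5% of the Ptger4 exon bases, and whether counting used strand is not stated, so reads of these genes cannot be told apart there. Ptgs2 was also among the more variable genes between libraries. The SD of its log2 CPM over the 12 libraries lay at percentile 92.2 of all tested genes, and its highest library was 4.88 times its lowest. Ptgds lay at percentile 92.4, on counts of only 1 to 21 reads, and Tbxa2r was the steadiest of the 10 at percentile 56.4.

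**Figure D1:**
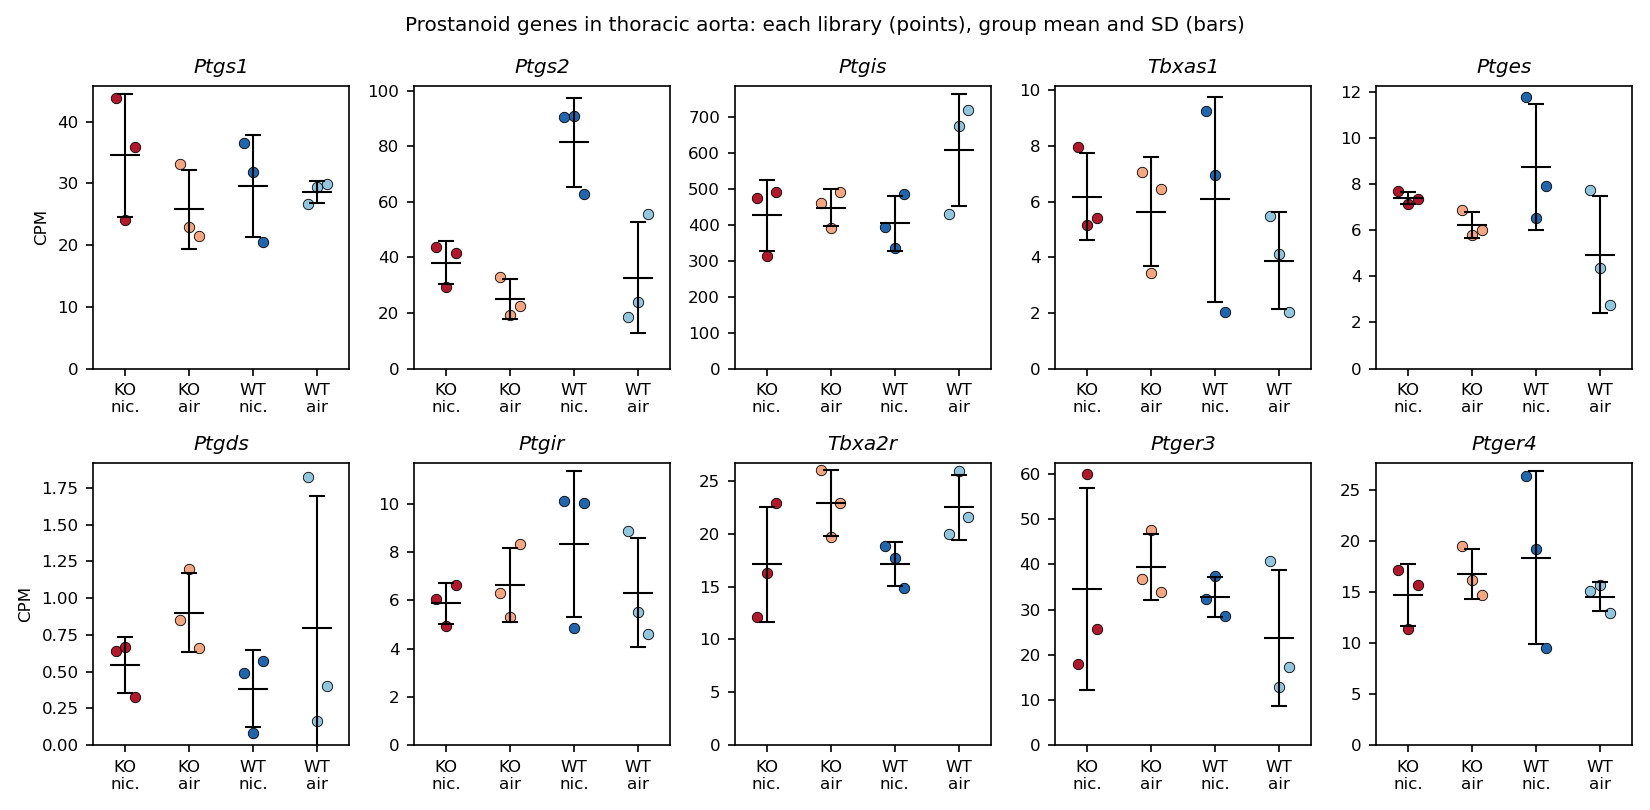
Level of each of the 10 prostanoid genes (CPM, linear axis from 0) in KO nicotine, KO air, WT nicotine and WT air libraries; points are libraries, bars are the group mean and SD (n = 3). The 3 WT nicotine libraries sit between 63.0 and 90.9 CPM for Ptgs2, above every other library, and Ptgis reaches its highest values, 675 and 719 CPM, in a pair of WT air libraries.

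Nicotine vapor was first compared with room air within each genotype. With edgeR's quasi-likelihood test on all 12 libraries and an adjusted p under 0.05 as the threshold, none of the 10 genes was called in WT, where 0.0205% of all tested genes (3 genes) were called. None was called in KO, where 0% of tested genes were. In WT, 7 of the 10 log2 fold changes were above 0, against 49.4% of all tested genes, with a median of 0.37 against -0.0047 over all tested genes. At an unadjusted p under 0.05, Ptgs2 and Ptges were higher in WT nicotine and Ptgis was lower, which is 2 and 1 of 10 genes where 5.43% and 4.41% of all tested genes passed in those directions. In KO, 4 of the 10 log2 fold changes were above 0, against 51.5% of tested genes, with a median of -0.12. None of the 10 reached an unadjusted p under 0.05 in KO, where 2.48% of tested genes did so as higher and 2.1% as lower. In KO, none of the 10 had nicotine libraries all below the air libraries in CPM, as 5.55% of tested genes did.

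**Figure D2:**
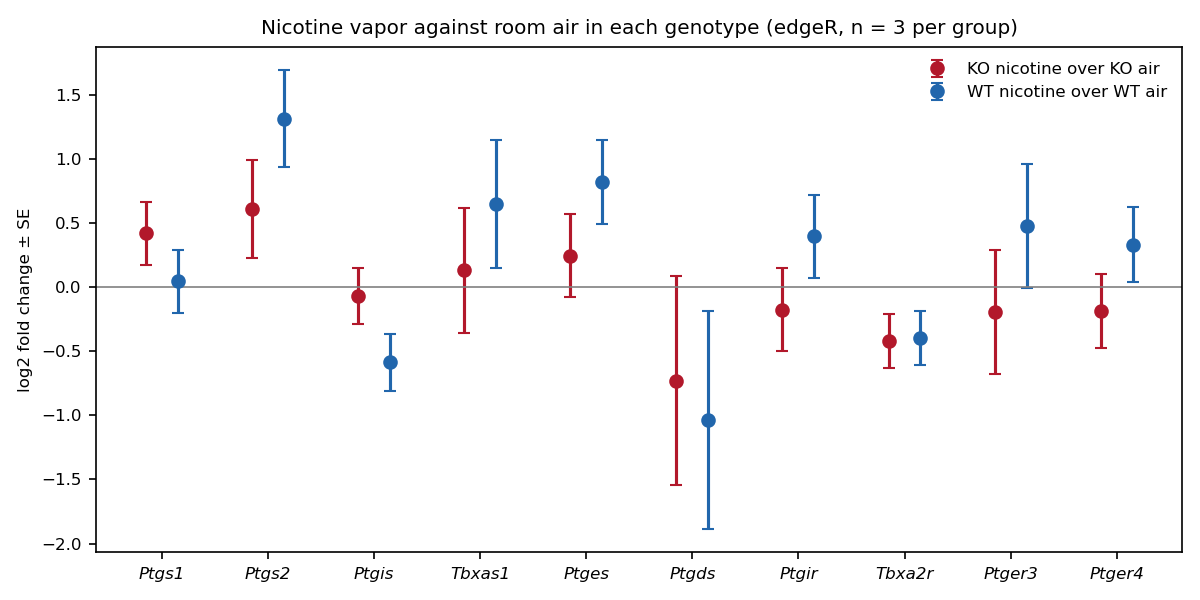
Log2 fold change (± SE, edgeR, n = 3 libraries a group) of each prostanoid gene in nicotine over air, for KO (red) and WT (blue). The WT points of Ptgs2 (1.32) and Ptges (0.82) lie above 0 and those of Ptgis (-0.59) and Ptgds (-1.04) below it, the last with a wide error; the points of Tbxa2r lie at -0.42 in KO and -0.39 in WT.

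Ptgs2 encodes the inducible cyclooxygenase. Its level was 43.7, 29.3 and 41.5 CPM in KO nicotine libraries, against 33.1, 19.3 and 22.6 CPM in KO air libraries. It was 90.6, 90.9 and 63.0 CPM in WT nicotine libraries, against 18.6, 23.8 and 55.7 CPM in WT air libraries. In WT the nicotine libraries all stood above the air libraries, although WT air 10 came close to the lowest of them, and in KO the groups overlapped. Libraries that did not overlap in this upward direction were found for 7.13% of all tested genes in WT, and Ptgs2 alone among the 10. The group means were 38.2 ± 7.77 CPM in KO nicotine and 25.0 ± 7.18 in KO air, and 81.5 ± 16.0 CPM in WT nicotine and 32.7 ± 20.0 in WT air (SD, n = 3 each). The log2 fold change of nicotine over air was 1.32 ± 0.38 (SE) in WT, a ratio of 2.49, with an unadjusted edgeR p of 0.00583 and an adjusted p of 0.316. In KO it was 0.61 ± 0.38 with an unadjusted edgeR p of 0.140. Averaged over both genotypes it was 0.96 ± 0.27, with an edgeR adjusted p of 0.332 where 0% of tested genes were called. In that average 7 of the 10 genes were above 0 (median 0.13), against 51.4% of tested genes.

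The call on Ptgs2 depended on the test and on WT air 10. With DESeq2 on the same 12 libraries its log2 fold change in WT was 1.33 with an adjusted p of 0.0248, a call shared by 0.787% of tested genes (115 genes), and averaged over genotypes it was 0.97 with an adjusted p of 0.0203, where 0.657% of tested genes were called. DESeq2 on the 6 WT libraries alone, added after the deposited tables had been seen, gave 1.32 with an adjusted p of 0.0308 and called 0.934% of tested genes. The authors' deposited table for WT lists Ptgs2 at 1.32 with an adjusted p of 0.0285, among 123 of 17223 genes under 0.05 (0.714%), and the authors' deposited table for KO lists it at 0.61 with an adjusted p of 0.939, where 7 genes (0.0406%) are under 0.05. No other of the 10 genes had an adjusted p under 0.05 in the authors' deposited tables. Without WT air 10, edgeR gave 1.95 in WT with an adjusted p of 0.0494, a call made for 0.0266% of 15011 tested genes, and 1.28 averaged over genotypes with an adjusted p of 0.0287. With no library left out, the other settings gave 1.32 to 1.73 in WT and 0.96 to 1.25 averaged over genotypes. The adipocyte marker mean as a covariate was among these settings.

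The level of Ptgs2 was set beside marker lists, the first of immediate early genes. The 9 listed (Fos, Fosb, Jun, Junb, Egr1, Egr2, Ier2, Nr4a1 and Atf3, genes of rapid response, most of them transcription factors) had 9 log2 fold changes above 0 in WT with a median of 0.89, and 3 above 0 in KO with a median of -0.08, none called by edgeR. Their summed level was 980 to 2343 CPM in KO nicotine and 1096 to 2546 in KO air, and 1607 to 3582 CPM in WT nicotine and 526 to 2378 in WT air, with no gene of the list at 0. In WT air, the list had a mean log2 CPM of 5.26, 5.95 and 7.39 in libraries 8, 9 and 10, so WT air 10 was the highest air library of WT for this list as for Ptgs2. Over the 12 libraries the list's mean and log2 CPM of Ptgs2 had a Pearson r of 0.798 (permutation p 0.00266, adjusted over 140 pairs of gene and list 0.0540) and a Spearman rho of 0.755 (permutation p 0.00639, adjusted 0.120). Without the 2 libraries farthest from the median of the list r was 0.677, and for deviations from the group means it was 0.919. The 6 macrophage markers, such as Adgre1 and Csf1r, summed to 252 to 488 CPM in KO nicotine and 228 to 362 in KO air, and to 352 to 496 CPM in WT nicotine and 211 to 241 in WT air, with none at 0. All 6 had a log2 fold change above 0 in WT (median 0.79) and 5 of 6 in KO (median 0.20). Their r with Ptgs2 was 0.615 (permutation p 0.0338, adjusted 0.217) and rho 0.510 (permutation p 0.0931, adjusted 0.420), with r at 0.473 without WT nicotine 6 and KO nicotine 3 and 0.210 for deviations from group means.

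The 5 neutrophil markers summed to 4.86 to 13.5 CPM in KO nicotine and 8.76 to 12.8 in KO air, and to 14.8 to 71.3 CPM in WT nicotine and 4.35 to 20.9 in WT air, with Retnlg at 0 in KO nicotine 4 and KO air 1. Of their log2 fold changes, 1 of 5 was above 0 in KO (median -0.36) and 5 of 5 in WT (median 2.24). Their mean had an r of 0.572 with Ptgs2 (permutation p 0.0485, adjusted 0.256) and a rho of 0.538 (permutation p 0.0756, adjusted 0.417), and r was 0.193 without WT nicotine 6 and 12 and 0.0588 for deviations from group means. The 5 glucocorticoid-responsive genes summed to 543 to 725 CPM in KO nicotine and 385 to 457 in KO air, and to 661 to 1049 CPM in WT nicotine and 513 to 740 in WT air, with none at 0. All 5 were above 0 in both genotypes, with a median log2 fold change of 0.82 in KO and 0.68 in WT, and none was called by edgeR. Their r with Ptgs2 was 0.674 (permutation p 0.0164, adjusted 0.143) and rho 0.734 (permutation p 0.00828, adjusted 0.129), with r at 0.593 without WT nicotine 12 and KO air 2 and 0.254 for deviations from group means. The 6 fibroblast markers, such as Pdgfra and Dcn, had 6 log2 fold changes above 0 in WT (median 0.26) and 0 in KO (median -0.10). Their r with Ptgs2 was 0.577 (permutation p 0.0494, adjusted 0.256) and rho 0.4545 (permutation p 0.139, adjusted 0.457). That r was 0.46 without KO nicotine 4 and WT air 8, and 0.531 for deviations from group means. No adjusted p between Ptgs2 and these lists was under 0.05, and their part in the level of Ptgs2 was not tested. In a whole tissue, fewer cells of a type and less RNA per cell cannot be told apart, here and for each gene below.

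**Figure D3:**
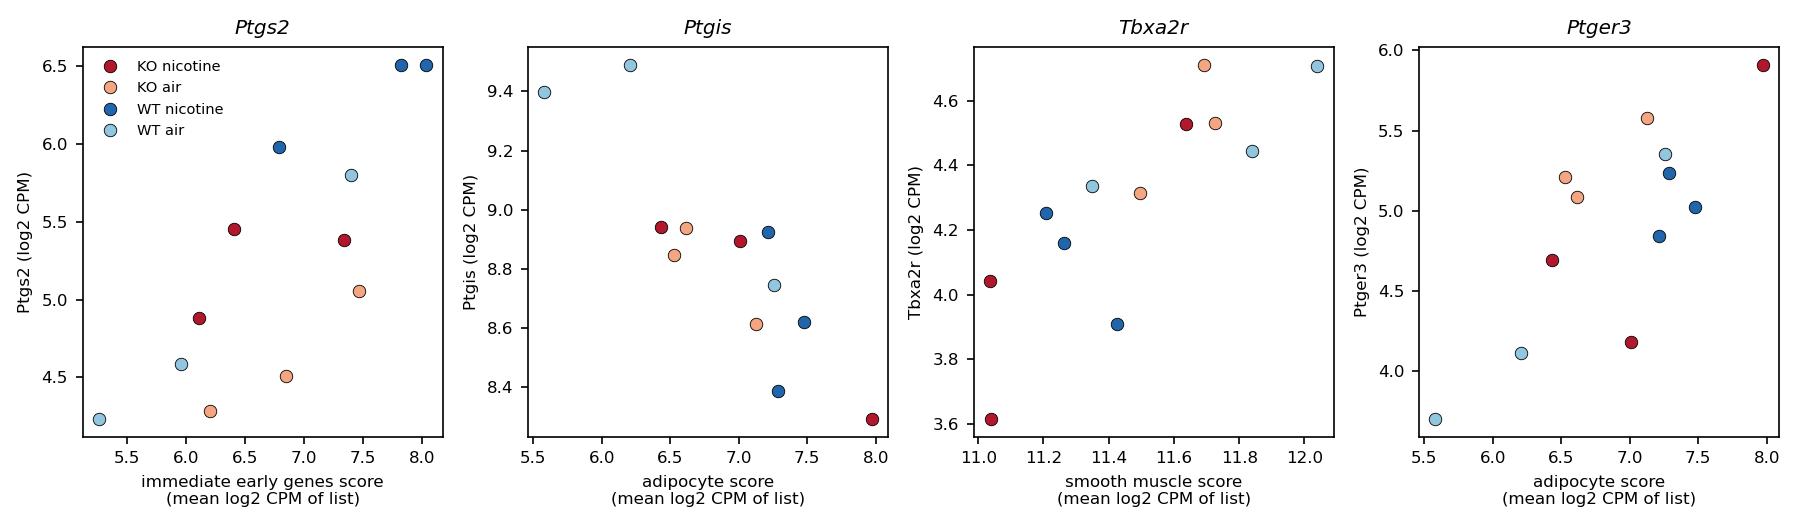
Log2 CPM of Ptgs2, Ptgis, Tbxa2r and Ptger3 (vertical axes) against the mean log2 CPM of a marker list (horizontal axes: immediate early genes, adipocyte, smooth muscle and adipocyte), each point a library coloured by group. Ptgs2, Tbxa2r and Ptger3 run upward with their lists (r = 0.798, 0.823 and 0.778) and Ptgis runs downward (r = -0.878).

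Ptgs1 encodes the constitutive cyclooxygenase, the form used by platelets. Its level was 43.8, 24.0 and 35.9 CPM in KO nicotine libraries, against 33.2, 22.9 and 21.4 CPM in KO air libraries. In WT it was 36.6, 31.8 and 20.5 CPM in nicotine libraries, against 26.6, 29.4 and 29.9 CPM in air libraries. The groups overlapped in both genotypes. The log2 fold change of nicotine over air was 0.42 ± 0.25 in KO and 0.05 ± 0.25 in WT, with an edgeR adjusted p of 0.968 in WT. The 6 platelet markers, such as Pf4 and Itga2b, summed to 70.6 to 113 CPM in KO nicotine and 88.9 to 141 in KO air, and to 56.3 to 185 CPM in WT nicotine and 80.9 to 161 in WT air, and 3 of 6 had a log2 fold change above 0 in WT and 1 of 6 in KO.

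Within a library, the ratio of Ptgs2 to Ptgs1 reads needs no scaling between libraries. There were 0.998, 1.22 and 1.16 Ptgs2 reads per Ptgs1 read in KO nicotine libraries, against 0.997, 0.844 and 1.06 in KO air libraries. In WT there were 2.47, 2.86 and 3.07 in nicotine libraries, against 0.700, 0.810 and 1.86 in air libraries. The WT nicotine libraries stood above all others, and KO libraries of both exposures lay near equal counts of the 2 genes. Averaged over genotypes, the log2 ratio was 0.82 ± 0.73 in nicotine and -0.02 ± 0.49 in air (SD, n = 6 each), a difference of 0.84 with an exact two-sided permutation p of 0.01 and 0.06 after adjustment over 6 ratio tests, which misses 0.05. Averaged over exposures, it was 0.05 ± 0.19 in KO and 0.75 ± 0.94 in WT (SD, n = 6 each), a difference of -0.70 with an exact permutation p of 0.05 and an adjusted p of 0.15. Labels were permuted within the other factor in 400 arrangements, whose smallest p is 0.005, and with 3 libraries against 3 the difference within a genotype was left as values.

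**Figure D4:**
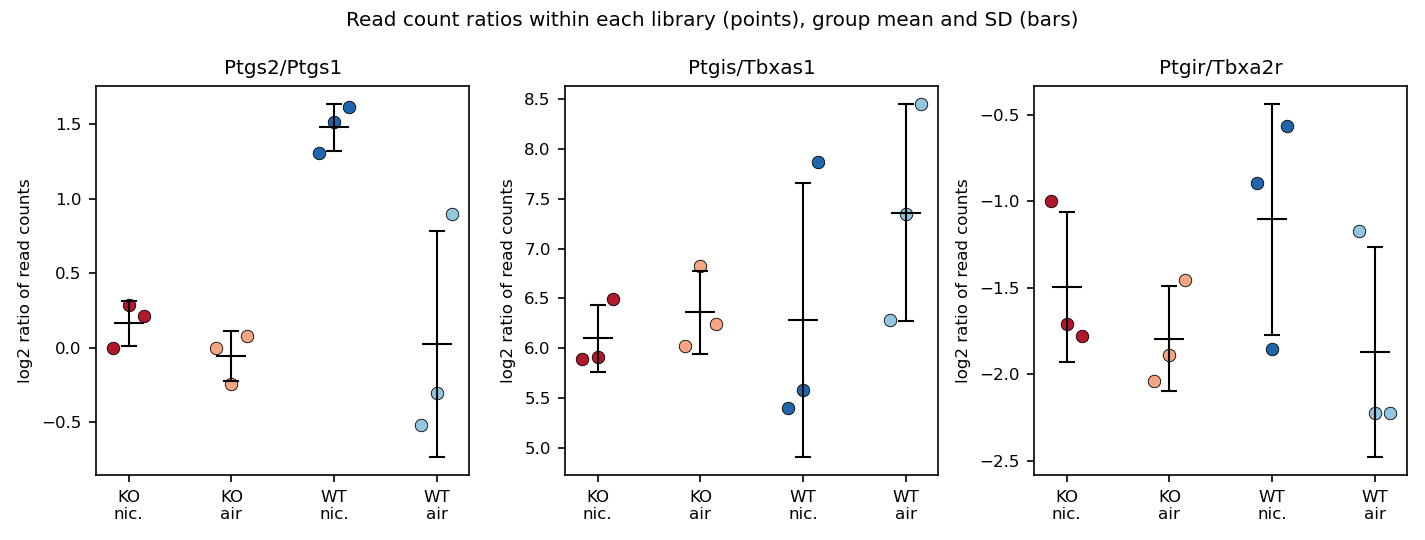
Log2 ratio of read counts within each library for Ptgs2 over Ptgs1, Ptgis over Tbxas1 and Ptgir over Tbxa2r, in KO nicotine, KO air, WT nicotine and WT air libraries; points are libraries, bars are the group mean and SD (n = 3). The 3 WT nicotine libraries lie highest for Ptgs2 over Ptgs1 (2.47 to 3.07 on the linear scale), while the groups overlap for the other 2 ratios.

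Ptgis encodes prostacyclin synthase. Its level was 476, 314 and 491 CPM in KO nicotine libraries, against 461, 392 and 491 CPM in KO air libraries. It was 393, 335 and 486 CPM in WT nicotine libraries, against 430, 675 and 719 CPM in WT air libraries. WT air 9 and 10 were the highest of all 12 libraries, while WT air 8 lay among the nicotine libraries. The log2 fold change of nicotine over air was -0.59 ± 0.22 in WT, with an unadjusted edgeR p of 0.0185 and an adjusted p of 0.404, and -0.07 ± 0.22 in KO. Averaged over genotypes it was -0.33 ± 0.15 with an edgeR adjusted p of 0.455.

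The means of the adipocyte and endothelial lists were correlated with Ptgis at an adjusted p under 0.05. That of the smooth muscle list narrowly missed it for Pearson's r, with an r of similar size and opposite sign. The adipocyte list summed to 1063 to 2866 CPM in KO nicotine and 1201 to 1679 in KO air, and to 1795 to 2586 CPM in WT nicotine and 812 to 1903 in WT air, with none of its genes at 0; 7 of 7 log2 fold changes were above 0 in KO (median 0.60) and 6 of 7 in WT (median 0.97). The smooth muscle list summed to 22436 to 36764 CPM in KO nicotine and 30891 to 37559 in KO air, and to 27438 to 31561 CPM in WT nicotine and 30029 to 45223 in WT air; 0 of 6 were above 0 in either genotype (median -0.34 in KO and -0.47 in WT). Over the 12 libraries, log2 CPM of Ptgis and the adipocyte mean had a Pearson r of -0.878 (permutation p 0.00011, adjusted 0.0154) and a rho of -0.874 (permutation p 0.00045, adjusted 0.0392). Without the 2 farthest libraries, WT air 9 and KO nicotine 4, r was -0.775, and for deviations from group means it was -0.835. With the smooth muscle mean r was 0.786 (permutation p 0.00233, adjusted 0.0540) and rho 0.769 (permutation p 0.00493, adjusted 0.115). That r was 0.614 without the same 2 libraries and 0.749 for deviations from group means. With the adipocyte mean as a covariate in edgeR, the log2 fold change of Ptgis was -0.13 in WT, -0.026 averaged over genotypes and 0.21 for the interaction. The 6 endothelial markers, such as Pecam1 and Cdh5, summed to 1241 to 1471 CPM in KO nicotine and 1069 to 1333 in KO air, and to 986 to 1573 CPM in WT nicotine and 1068 to 1259 in WT air, with 4 of 6 above 0 in KO (median 0.25) and 5 of 6 in WT (median 0.30). Their mean had an r of -0.837 with Ptgis (permutation p 0.00071, adjusted 0.0329) and a rho of -0.860 (permutation p 0.00056, adjusted 0.0392), with r at -0.655 without WT air 9 and 10 and -0.726 for deviations from group means. The adipocyte mean itself was 7.22 to 7.47 in WT nicotine libraries and 5.58 to 7.26 in WT air libraries. The covariate fit therefore cannot tell adipocyte content apart from exposure, here and for the genes below. The part of these tissue markers in the level of Ptgis was not tested.

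Tbxas1 encodes thromboxane synthase, best known from platelets and macrophages. Its level was 7.97, 5.15 and 5.42 CPM in KO nicotine libraries, against 7.06, 3.42 and 6.44 CPM in KO air libraries. It was 9.25, 6.96 and 2.04 CPM in WT nicotine libraries, against 5.48, 4.12 and 2.02 CPM in WT air libraries. The groups overlapped in both genotypes, and the lowest values belonged to WT nicotine 12 and WT air 10, with 25 reads each. Nicotine over air gave a log2 fold change of 0.13 ± 0.49 in KO and 0.65 ± 0.50 in WT, with an edgeR adjusted p of 0.702 in WT. With the macrophage mean Tbxas1 had an r of 0.613 (permutation p 0.0341, adjusted 0.217) and a rho of 0.748 (permutation p 0.00684, adjusted 0.120). That r was 0.382 without WT nicotine 6 and KO nicotine 3, and 0.681 for deviations from group means. The r was 0.591 with the endothelial mean and 0.356 with the platelet mean (permutation, adjusted p 0.246 and 0.561). The part of these lists in the level of Tbxas1 was not tested. Per Tbxas1 read there were 59.3, 60.4 and 89.9 Ptgis reads in KO nicotine libraries, against 64.9, 113 and 75.8 in KO air libraries. In WT there were 42.3, 47.8 and 233 in nicotine libraries, against 77.8, 162 and 350 in air libraries. The 2 highest ratios came from the 2 libraries with the lowest Tbxas1 level, and the groups overlapped. The log2 ratio differed by -0.67 between nicotine and air averaged over genotypes (exact permutation p 0.205, adjusted 0.308) and by -0.59 between KO and WT averaged over exposures (exact permutation p 0.295, adjusted 0.354).

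Ptges encodes microsomal prostaglandin E synthase, the inducible form. Its level was 7.69, 7.15 and 7.36 CPM in KO nicotine libraries, against 6.89, 5.81 and 6.03 CPM in KO air libraries. It was 11.8, 6.54 and 7.92 CPM in WT nicotine libraries, against 7.75, 4.37 and 2.74 CPM in WT air libraries. In KO the nicotine libraries all lay above the air libraries, as for 5.13% of tested genes, though by a narrow margin, and in WT the groups overlapped. The log2 fold change of nicotine over air was 0.25 ± 0.33 in KO and 0.82 ± 0.33 in WT, with an unadjusted edgeR p of 0.0258 and an adjusted p of 0.438 in WT. Averaged over genotypes it was 0.53 ± 0.23 with an unadjusted p of 0.0371 and an edgeR adjusted p of 0.427. The WT value was 1.32 without WT air 8 and 0.53 without WT air 10. With the adipocyte mean as a covariate the value was 0.14 in KO, 0.56 in WT and 0.35 averaged over genotypes. At that unadjusted threshold, Ptgs2 and Ptges were higher and Tbxa2r was lower among the 10 genes, where 5.62% and 5.33% of tested genes passed in those directions. Over the 12 libraries Ptges had an r of 0.706 with the endothelial mean (permutation p 0.0134, adjusted 0.143) and a rho of 0.448 (permutation p 0.147, adjusted 0.457), with r at 0.451 without WT air 9 and 10 and 0.514 for deviations from group means. With the macrophage mean r was 0.695 (permutation p 0.00954, adjusted 0.134) and rho 0.622 (permutation p 0.0346, adjusted 0.285), or 0.521 without WT nicotine 6 and KO nicotine 3. With the adipocyte mean r was 0.644 (permutation p 0.0260, adjusted 0.182) and rho 0.587 (permutation p 0.0490, adjusted 0.343), and with the smooth muscle mean r was -0.671 (permutation p 0.0137, adjusted 0.143) and rho -0.671 (permutation p 0.0202, adjusted 0.205), or 0.695 and -0.664 for r without WT air 9 and KO nicotine 4. None of these adjusted p-values was under 0.05, and the part of these lists in the level of Ptges was not tested.

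Ptgds encodes the lipocalin-type prostaglandin D synthase and was close to the limit of detection, with 4 to 7 reads in KO nicotine libraries and 8 to 14 in KO air libraries, and 1 to 7 reads in WT nicotine libraries and 2 to 21 in WT air libraries. WT air 8 alone held 21 reads, against 2 and 5 in the other WT air libraries. On the log2 scale the fold change was -0.73 ± 0.82 in KO and -1.04 ± 0.85 in WT, and in WT it became 0.43 without WT air 8. No difference was detectable at this depth.

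Among the receptors, Ptgir encodes the prostacyclin receptor. Its level was 6.05, 4.96 and 6.64 CPM in KO nicotine libraries, against 6.29, 5.30 and 8.34 CPM in KO air libraries. It was 10.1, 4.86 and 10.04 CPM in WT nicotine libraries, against 8.88, 5.52 and 4.60 CPM in WT air libraries. Each pair of groups overlapped, with log2 fold changes of -0.17 ± 0.33 in KO and 0.40 ± 0.32 in WT, with an edgeR adjusted p of 0.717 in WT.

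Tbxa2r encodes the thromboxane receptor, through which smooth muscle contracts. Its level was 12.1, 16.3 and 22.9 CPM in KO nicotine libraries, against 26.0, 19.7 and 22.9 CPM in KO air libraries. It was 18.9, 17.7 and 14.9 CPM in WT nicotine libraries, against 20.0, 26.0 and 21.6 CPM in WT air libraries. The WT nicotine libraries all lay below the WT air libraries, as for 6.05% of tested genes, and the KO groups overlapped. The log2 fold change was -0.42 ± 0.21 in KO (unadjusted edgeR p 0.0694) and -0.39 ± 0.21 in WT (adjusted p 0.566). In KO it was -0.69 without KO nicotine 5 and -0.21 without KO nicotine 3, and in WT it lay between -0.45 and -0.28 with a library left out. Averaged over genotypes the value was -0.41 ± 0.15, with an unadjusted edgeR p of 0.0174 and an adjusted p of 0.383. With the adipocyte mean as a covariate in edgeR it was -0.33 in KO, -0.15 in WT and -0.24 averaged over genotypes.

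The values of the smooth muscle list in each group are given above. Pearson's r of Tbxa2r with the mean of this list over 12 libraries was 0.823 (permutation p 0.00094, adjusted 0.0329) and rho was 0.825 (permutation p 0.00171, adjusted 0.0791). Without the 2 farthest libraries r was 0.794, and for deviations from group means 0.681. Skeletal muscle markers, such as Acta1 and Ckm, ran the other way with r = -0.864 (permutation p 0.00045, adjusted 0.0315) and rho = -0.804 (permutation p 0.00226, adjusted 0.0791), and r was -0.625 without KO nicotine 3 and WT nicotine 12. These 5 markers summed to 7.45 to 158 CPM in KO nicotine and 7.48 to 11.1 in KO air, and to 8.46 to 39.2 CPM in WT nicotine and 8.18 to 12.9 in WT air, with 5 of 5 log2 fold changes above 0 in KO (median 2.15) and 4 of 5 in WT (median 0.78). The part of either list in the level of Tbxa2r was not tested.

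Set against each other within a library, there were 0.502, 0.306 and 0.291 Ptgir reads per Tbxa2r read in KO nicotine libraries, against 0.243, 0.270 and 0.364 in KO air libraries. In WT there were 0.538, 0.277 and 0.677 in nicotine libraries, against 0.445, 0.214 and 0.214 in air libraries. Fewer Ptgir than Tbxa2r reads were thus counted in every library, and the groups overlapped in both genotypes. The log2 ratio differed by 0.53 between nicotine and air averaged over genotypes (exact permutation p 0.09, adjusted 0.18) and by -0.16 between KO and WT averaged over exposures (exact permutation p 0.605, adjusted 0.605).

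Ptger3 encodes the EP3 receptor for prostaglandin E2, which lowers cyclic AMP and is known from adipocytes as well as vessels. Its level was 18.0, 60.0 and 25.7 CPM in KO nicotine libraries, against 36.8, 47.6 and 33.8 CPM in KO air libraries. It was 32.4, 37.5 and 28.6 CPM in WT nicotine libraries, against 40.8, 12.9 and 17.2 CPM in WT air libraries. The groups overlapped in both genotypes, with the extremes in KO nicotine 4 and WT air 9. Nicotine over air gave a log2 fold change of -0.19 ± 0.48 in KO and 0.48 ± 0.49 in WT, with an edgeR adjusted p of 0.785 in WT. KO nicotine 4 and WT air 9 were also the highest and the lowest library for the adipocyte mean, at 7.97 and 5.58. Over the 12 libraries r with that mean was 0.778 (permutation p 0.0027, adjusted 0.0540) and rho 0.713 (permutation p 0.0115, adjusted 0.161), and r was 0.471 without these 2 libraries, so the pooled relation rests in part on them. For deviations from group means r was 0.876. Endothelial, mast cell (such as Cpa3) and brown fat (such as Ucp1) means had an r with Ptger3 of 0.678, 0.667 and 0.647 (permutation, adjusted p 0.143, 0.143 and 0.177). KO nicotine 4 and WT air 9 were also the extremes of the mast cell mean, at 3.39 and 0.603. Its r was 0.030 without them and 0.845 for deviations, where the fibroblast r was -0.764. With the adipocyte mean as a covariate in edgeR, the WT log2 fold change of Ptger3 was -0.26, of opposite sign. The part of these lists in the level of Ptger3 was not tested.

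Ptger4 encodes the EP4 receptor, which raises cyclic AMP and relaxes vessels. Its level was 17.1, 11.3 and 15.7 CPM in KO nicotine libraries, against 19.5, 16.2 and 14.7 CPM in KO air libraries. It was 26.4, 19.2 and 9.47 CPM in WT nicotine libraries, against 15.1, 15.7 and 12.9 CPM in WT air libraries. WT nicotine held both the highest and the lowest library, and groups overlapped in both genotypes. Its log2 fold change was -0.19 ± 0.29 in KO and 0.33 ± 0.29 in WT, with an edgeR adjusted p of 0.741 in WT.

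Whether nicotine acted differently in the 2 genotypes was tested as an interaction, the log2 fold change in KO minus that in WT. None of the 10 genes was called by edgeR, as 0% of tested genes were, and none had an unadjusted p under 0.05, where 1.85% of tested genes passed as higher and 2.58% as lower. The value for Ptgs2 was -0.70 ± 0.53 with a 95% interval (8 degrees of freedom) of -1.94 to 0.53, and an edgeR adjusted p of 0.999. The interval holds 0 as well as a large difference, and without WT air 10 the value was -1.33, again with an adjusted p of 0.999. Ptgis had 0.52 ± 0.31, Ptges -0.57 ± 0.46 and Tbxa2r -0.02 ± 0.30, each with an adjusted p of 0.999. For Ptges it was -1.07 without WT air 8, -0.28 without WT air 10 and -0.31 without WT nicotine 6. For Tbxa2r the 95% interval ran from -0.72 to 0.67, wide enough to hold effects of either sign as large as the nicotine effects themselves. Of the 10 values, 3 were above 0 (median -0.52), against 52.9% of tested genes.

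Comparing the genotypes within an exposure, no prostanoid gene was called by edgeR in air, where 0% of tested genes were, and none in nicotine, where 0.00684% (1 gene) was. In nicotine, Ptgs2 averaged 38.2 ± 7.77 CPM in KO and 81.5 ± 16.0 CPM in WT (SD, n = 3 each), and every KO library lay below every WT library, as for 5.59% of tested genes. Its log2 fold change was -1.09 ± 0.38, with an unadjusted edgeR p of 0.0155 and an adjusted p of 0.481, the only gene of the 10 under 0.05 unadjusted where 4.29% of tested genes passed as higher and 4.06% as lower. DESeq2 on these 6 libraries alone, also added later, called Ptgs2 with a log2 fold change of -1.10 and an adjusted p of 0.000831, as it did 0.455% of tested genes. DESeq2 on all 12 libraries did not, with an adjusted p of 0.107, where it called 0.595% of tested genes. Ptgir had -0.50 ± 0.32 in nicotine with an edgeR adjusted p of 0.760. In nicotine 5 of the 10 values were above 0 (median 0.01), against 52.3% of tested genes, and none of the 10 had KO libraries all above WT libraries, as 5.8% of tested genes did. In air, Ptgis had -0.44 ± 0.22 and Ptger3 0.74 ± 0.49, each with an edgeR adjusted p of 0.995, and none of the 10 had an unadjusted p under 0.05, where 2.24% of tested genes passed as higher and 2.12% as lower. There 7 of the 10 were above 0 (median 0.13), against 50.2% of tested genes, and the KO and WT libraries overlapped for all 10, where 5.75% and 6.06% of tested genes lay wholly above and below. Averaged over exposures, where 0% of tested genes were called, Ptgs2 had -0.74 ± 0.27 with an unadjusted edgeR p of 0.0195 and an adjusted p of 0.4996. It was the only one of the 10 under 0.05 unadjusted, against 4.13% of tested genes as higher and 4.27% as lower, and 6 of the 10 were above 0 (median 0.02), against 52% of tested genes. These genotype comparisons share libraries with the nicotine comparisons above.

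The wider pathway was read through 28 other genes for arachidonate release, further synthases and receptors, and transport and breakdown of prostanoids, a list chosen with earlier results of these data known. Of these, 27 were in the table and 17 passed the filter on low counts. None of the 17 was called by edgeR in any comparison, and in none were more than 0.0205% of all tested genes called. In KO, 12 of 17 log2 fold changes of nicotine over air were above 0 with a median of 0.14, against 51.5% of all tested genes with a median of 0.0095. In WT 11 of 17 were above 0 with a median of 0.08, against 49.4% of all tested genes with a median of -0.0047. The lowest p-values in KO belonged to Ptgr2 (0.48 ± 0.33) and Abcc4 (0.24 ± 0.18) among higher genes, which encode a prostaglandin reductase and an exporter. Among lower genes in KO they belonged to Ptgfr (-0.45 ± 0.25), the receptor for prostaglandin F2alpha, and Ptgr1 (-0.50 ± 0.30), a further reductase. In WT they belonged to Hpgds (0.83 ± 0.41), the haematopoietic prostaglandin D synthase, and Ptgr2 (0.39 ± 0.33), and downward to Ptger1 (-0.32 ± 0.13), the EP1 receptor, and Akr1b3 (-0.18 ± 0.12), an aldo-keto reductase with prostaglandin F synthase activity. Ptger1 was the only one of the 17 under an unadjusted p of 0.05 in WT, where 5.43% of tested genes passed as higher and 4.41% as lower, and none was in KO, where 2.48% and 2.1% did. Averaged over genotypes the lowest p-values belonged to Ptgr2 (0.44 ± 0.24) and Pla2g12a (0.24 ± 0.18), a secreted phospholipase A2, and downward to Ptgfr (-0.35 ± 0.18) and Ptger1 (-0.13 ± 0.09). None of the 17 was under 0.05 unadjusted in that average, where 5.62% of tested genes passed as higher and 5.33% as lower. For the interaction, Hpgds had -1.19 ± 0.58 and Hpgd -0.85 ± 0.57, and Ptger1 0.38 ± 0.19 and Akr1b3 0.27 ± 0.16, each with an edgeR adjusted p of 0.999. Whether counting used strand is not stated, so the values of Ptger1 and Ptgr2 are uncertain.

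**Figure D5:**
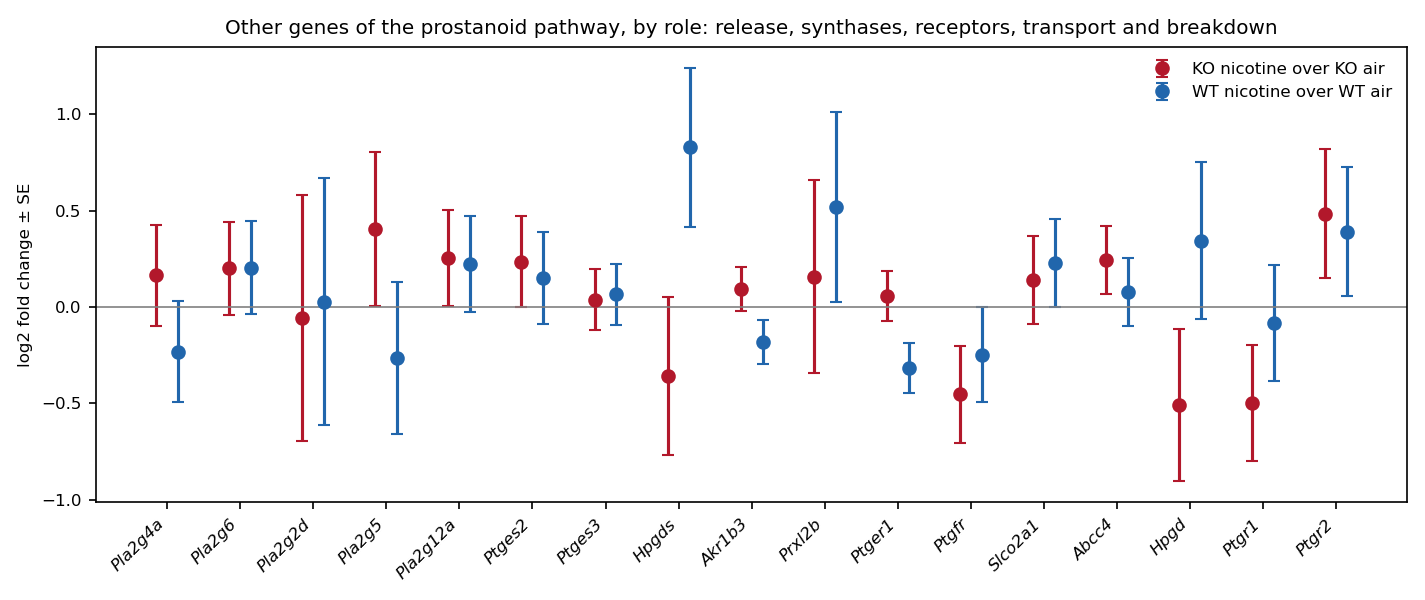
Log2 fold change (± SE, edgeR, n = 3 libraries a group) in nicotine over air for the 17 tested genes of the wider prostanoid pathway, ordered by role, for KO (red) and WT (blue). Hpgds lies at 0.83 in WT and -0.36 in KO, Ptger1 at -0.32 in WT and 0.06 in KO, and no gene was called.

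Hpgd, which encodes the enzyme that inactivates prostaglandins by oxidation, had the largest log2 fold change between genotypes in air among the 17 tested genes of the wider pathway. Its level was 10.2, 10.1 and 9.41 CPM in KO air libraries, against 4.0, 5.52 and 3.95 CPM in WT air libraries. The KO libraries lay close together and all above the WT libraries, as for 5.75% of tested genes. KO over WT gave a log2 fold change of 1.14 ± 0.40, with an unadjusted edgeR p of 0.0141 and an adjusted p of 0.995. In nicotine its level was 7.14, 7.82 and 5.91 CPM in KO libraries, against 7.67, 7.80 and 1.71 CPM in WT libraries, and these overlapped. Also in air, Hpgds had 0.69 ± 0.41, and Ptges3, which encodes a cytosolic prostaglandin E synthase also known as the co-chaperone p23, had -0.34 ± 0.16, and Pla2g4a, the cytosolic phospholipase A2, -0.47 ± 0.26. In nicotine, KO against WT, Ptger1 had 0.43 ± 0.13, Akr1b3 0.23 ± 0.12, Ptges3 -0.37 ± 0.16 and Ptgfr -0.50 ± 0.25, none called. Averaged over exposures, Hpgd had 0.71 ± 0.28 and Ptger1 0.25 ± 0.09, with edgeR adjusted p of 0.538 and 0.497, and Ptges3 -0.35 ± 0.11 and Ptgfr -0.39 ± 0.18, with adjusted p of 0.431 and 0.579. These 4 of the 17 were under 0.05 unadjusted, 2 as higher and 2 as lower, where 4.13% and 4.27% of tested genes passed.

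The tested genes most like each prostanoid gene were found by Pearson's r of log2 CPM over the 12 libraries, which share depth and tissue content, as a description for the 9 genes with a mean of at least 5 CPM. Ptgs2 was most like Klf4, a Kruppel-like transcription factor (r = 0.958, rho = 0.923), Irs2, an insulin receptor substrate (r = 0.939), and Peli1, a ubiquitin ligase (r = 0.928). Ptgis was most like Actn4, an actin crosslinker (r = 0.977, rho = 0.958), the Wnt receptor gene Fzd7 (r = 0.967) and Csrp2 (r = 0.967), a smooth muscle LIM protein. Tbxa2r was most like Lynx1, which encodes a modulator of nicotinic receptors (r = 0.969, rho = 0.979), Gng12, a G protein subunit (r = 0.965), and Dact3 (r = 0.965). Ptger3 was most like Tkt, transketolase (r = 0.964, rho = 0.937), Acaca, acetyl-CoA carboxylase of fatty acid synthesis (r = 0.963), and Tmem179 (r = 0.958). Ptger4 was most like E2f2 (r = 0.954), Cd24a (r = 0.950) and Isg20 (r = 0.938). Ptgs1 was most like Pcdhga11 (r = 0.905), Tbxas1 like Ms4a4b (r = 0.915), Ptges like Lmnb1 (r = 0.927) and Ptgir like Tbc1d10b (r = 0.883), and for Ptges the rho of 0.552 was far below its r. Among the 10 genes themselves, Ptgis and Ptger3 ran most strongly against each other (r = -0.857, rho = -0.860), and Tbxas1 and Ptger4 most closely together (r = 0.756, rho = 0.755).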

How the data were processed

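Raw counts per gene symbol were deposited, made by the authors with HTSeq and build mm9, per the submitters' processing notes; aligner, annotation and versions were not given in the sources used here. RNA came from thoracic aortas cleaned of fat, with SMART-Seq v4 libraries, per the labels. For each genotype the authors also deposited a comparison of nicotine and air which, per the file headers, holds a mean scaled count (a signal), a log2 fold change and its error, a test score and an unadjusted and adjusted p-value; its program is not stated.

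Counts were fitted with edgeR 4.0.16 (TMM, filterByExpr, robust quasi-likelihood, 4 group means over 12 libraries, 8 residual degrees of freedom), with Benjamini-Hochberg adjustment over 14621 genes and calls under 0.05. An SE is the size of the log2 fold change divided by the root of its F statistic. Log2 CPM used a prior count of 2, and read ratios a pseudocount of 0.5. The prostanoid genes, the wider pathway and the marker lists were chosen with earlier results of these data known. All 10 members are named, and of the wider pathway any called gene and the 2 lowest p-values in each direction; Hpgd per library was chosen after its values were seen. Exact permutation tests were two-sided, and correlations used 100000 permutations. Alternatives were DESeq2 1.42.0, limma 3.58.1 voom, DESeq2 size factors, no filter on low counts, an adipocyte covariate, the compared groups alone and leaving out each library. The fits were tested in a single run on simulated counts, with 100 genes changed 2-fold and 100 others 4-fold in WT nicotine. For nicotine in WT, edgeR recovered 43 of the 2-fold and 71 of the 4-fold genes, with 4 false calls. DESeq2 recovered 55 and 78 with 18 false calls, and limma voom 41 and 73 with 3. Each simulated gene was drawn on its own, with no variation in tissue content shared by the genes of a library. Recovery and false calls may therefore differ in the real libraries. The software was R 4.3.3 and Python 3.11.15 with numpy 2.4.6, pandas 2.3.3 and matplotlib 3.10.9.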

Additional observations from a re-analysis of the deposited data

How the results depend on the processing

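The count of prostanoid genes called was 0 by edgeR in every comparison and 1 (Ptgs2) by DESeq2 for nicotine in WT and for nicotine averaged over genotypes. DESeq2 on the compared groups alone, added after the deposited tables were seen, gave 1 (Ptgs2) for nicotine in WT and for KO against WT in nicotine. Leaving out a library gave 0 to 1 for nicotine in WT and averaged over genotypes, with 1 only without WT air 10. The cause was not tested.

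Fold changes were followed only for the pairs of gene and comparison whose value is given above. The other pairs, among them some close to 0, were left out, so these counts do not cover every comparison of the 10 genes. Of 209 such fold changes under another setting, 202 kept their direction and side of the threshold, 4 became called and 3 reversed: Ptger3 in WT (-0.26) and Ptgis in KO (0.080) with the adipocyte covariate, and Ptgs1 in WT (-0.0059) with limma voom. Of 252 fold changes with a library left out, 236 kept both, 2 became called and 14 reversed. For nicotine in WT these ranged from -1.52 to 0.43 for Ptgds, -0.0056 to 0.65 for Ptger4 and -0.12 to 0.26 for Ptgs1. For nicotine in KO they ranged from -0.85 to 0.12 for Ptger3, -0.31 to 0.023 for Ptgir, -0.18 to 0.11 for Ptgis and -0.13 to 0.33 for Tbxas1. The interaction of Tbxa2r ranged from -0.31 to 0.18. None of these 14 was called by edgeR. The log2 ratio of Ptgir to Tbxa2r between KO and WT, tested by exact permutation, ranged from -0.34 to 0.019 and also reversed, without WT air 8.

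Counts over all genes moved more. Nicotine in WT called 3 genes by edgeR, 115 by DESeq2, 129 by DESeq2 on the compared groups, 7 with DESeq2 size factors, 21 with no filter, 0 with the adipocyte covariate or the compared groups alone, and 0 to 34 with a library left out. Nicotine averaged over genotypes called 0 by edgeR, 96 by DESeq2, 6 with no filter and up to 38 with a library left out (WT air 8). KO against WT averaged over exposures called 0, 115 by DESeq2, 12 with no filter and 6 with the covariate. In nicotine it called 1, 87 by DESeq2, 63 by DESeq2 on the compared groups, 6 with DESeq2 size factors, 7 with no filter, 7 with the covariate and 0 to 4 with a library left out, and in air 0, 13 and 52 by the 2 DESeq2 fits, and 2 with the compared groups alone. The interaction called 0, and 9 by DESeq2, and nicotine in KO 0, and 7 by DESeq2 on the compared groups.

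No paired analysis was possible because the groups share no library numbers. Depth limits Ptgds, with 1 to 21 reads a library. Over all tested genes the median SE was 0.22 between groups and 0.31 for the difference between genotypes.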
